A study of Mus musculus with 8 samples.

Results

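Acetylated lysine 27 of histone H3 (H3K27ac), found at enhancers and promoters in use, was examined at 8 genes used to tell border macrophages and monocytes from microglia: Mrc1, Cd163, Lyve1, Siglec1, F13a1, Pf4, Cbr2 and Ccr2. The genes were chosen by name, and their regions are the rows of the deposited table whose gene name is one of them. They account for 61 of 129304 listed regions and for 8 of 18707 gene symbols. Some of these regions lie inside another gene, or nearer to it than to the start of the named gene. The samples were nuclei sorted from mouse brain as PU.1-positive, OLIG2-negative and NEUN-negative, so the gate keeps myeloid nuclei and removes oligodendrocyte and neuronal nuclei. All mice were C57BL/6 and 2 years old. One genotype was wild type (WT). The other was GrnKO, a knockout of Grn, the gene of the secreted lysosomal protein progranulin. How the Grn allele was made and the sex of the mice were not given in the sources used here. Each genotype had 2 H3K27ac libraries and 2 input libraries, which are sheared chromatin sequenced without antibody. Each replicate was a pool from 2 mice, and p-values measure the spread between these pools.

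Border macrophages live in the meninges, the perivascular spaces and the choroid plexus. They share PU.1 with microglia but carry scavenger and endocytic receptors that parenchymal microglia lack or hold at low levels. Classical monocytes circulate in blood and enter tissue through the chemokine receptor CCR2. Homeostatic microglia are marked instead by Tmem119, P2ry12 and the transcription factor gene Sall1. In nuclei sorted by this gate, a signal at a border macrophage gene can come from few strongly acetylated nuclei or from many weakly acetylated ones. Fewer nuclei of a type and less acetylation per nucleus cannot be told apart in these pools.

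The H3K27ac libraries held 15491642.5 to 20030832 tags and the inputs 4078179 to 14415969 tags. WT replicate 1 stood apart, with 49.4% of its tags in the listed regions against 63.3% to 65.7% in the other 3 H3K27ac libraries. Values are normalised tags per 800 bp region, scaled to 10000000 tags per library and then corrected for composition by the trimmed mean of M-values (TMM). The targeted gene followed the labels. Grn, summed over its 10 regions, had 2239 and 1867 normalised tags in WT, but 159 and 164 in GrnKO. Across the whole table, limma called 9.72% of tested regions at an adjusted p under 0.05, of which 6.8% of tested regions were higher in GrnKO and 2.92% lower. After summing regions per gene it called 14.4% of tested genes, 9.55% higher and 4.88% lower.

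RefSeq promoter windows on GRCm38.p6 were matched by symbol for 6 of the 8 genes, 7 windows in all. The set of windows used here had no entry for Lyve1 or Siglec1, although RefSeq lists both genes. The windows of 4 genes are printed, each on the strand of its gene, from 250 bases before the start to 30 bases after it. F13a1 is shown because its summed signal differed although its start region did not pass the test, and Ccr2 because it holds the one match of the interferon-response type. Pf4 and Mrc1 are shown because a listed region spans their windows completely and the windows hold a match. The Cbr2 window is also spanned but holds no match. No listed region touches the Ccr2 or the Cd163 window. Capitals mark matches, on either strand, to the motifs searched. The F13a1 window is chr13:37049184-37049463 (minus strand), the Ccr2 window chr9:124101933-124102212 (plus), the Pf4 window chr5:90772185-90772464 (plus) and the Mrc1 window chr2:14229164-14229443 (plus).
F13a1: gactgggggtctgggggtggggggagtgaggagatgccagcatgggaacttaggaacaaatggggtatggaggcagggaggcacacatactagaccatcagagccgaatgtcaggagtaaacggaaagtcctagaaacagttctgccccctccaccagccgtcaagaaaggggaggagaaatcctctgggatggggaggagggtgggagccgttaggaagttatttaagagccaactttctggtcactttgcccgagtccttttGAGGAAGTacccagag
Ccr2: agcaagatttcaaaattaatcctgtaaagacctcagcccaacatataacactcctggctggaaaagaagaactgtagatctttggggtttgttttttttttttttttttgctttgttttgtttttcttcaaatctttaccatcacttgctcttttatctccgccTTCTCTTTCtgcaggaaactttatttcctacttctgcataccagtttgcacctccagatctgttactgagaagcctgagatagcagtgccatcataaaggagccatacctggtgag
Pf4: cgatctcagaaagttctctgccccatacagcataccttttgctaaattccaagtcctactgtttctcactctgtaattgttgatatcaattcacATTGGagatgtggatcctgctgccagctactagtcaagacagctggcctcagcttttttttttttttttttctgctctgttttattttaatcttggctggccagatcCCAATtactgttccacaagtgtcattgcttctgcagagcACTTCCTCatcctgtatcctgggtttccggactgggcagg
Mrc1: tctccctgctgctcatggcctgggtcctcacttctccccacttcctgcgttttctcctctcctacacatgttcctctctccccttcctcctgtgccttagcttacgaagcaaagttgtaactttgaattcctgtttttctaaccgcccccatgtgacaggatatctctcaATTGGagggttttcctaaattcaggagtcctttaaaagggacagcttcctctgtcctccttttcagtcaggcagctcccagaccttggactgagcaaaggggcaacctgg

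Both strands were searched for 6 motifs. The ETS-type motif bound by PU.1, spelled GAGGAAGT, was found in 2 of the 7 windows, and 3.20% of all 32851 windows of the same length hold it. One match lies in the F13a1 window, 14 bases after the start, and the other in the Pf4 window, on the opposite strand and 10 bases before the start. The promoter motif spelled CCAAT occurred in 4 of 7 windows, against 37.4% of all windows, and those 4 belong to Mrc1, Pf4, Cd163 and the upstream F13a1 start. The motif of the interferon-stimulated response element type, spelled GAAANNGAA, occurred in 1 window, that of Ccr2, 86 bases before the start and on the opposite strand, against 8.56% of all windows. The AP-1 motif TGANTCA had 0 matches in the 7 windows and occurs in 7.81% of all windows. The E-box searched as CACGTG also had 0, against 7.15%. A start-site motif spelled TATAAA had 0 as well, against 13.6%. These are matches of letters only.

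The 8 genes covered a wide range of H3K27ac level. Because every region has one width, the mean per region is a level per length. In WT, Siglec1 had 151 ± 23.8 normalised tags per region (SD, n = 2), Ccr2 67.0 ± 0.842 and Cbr2 63.2 ± 4.62. Mrc1 had 21.95 ± 1.16, Pf4 17.4 ± 2.21, Cd163 15.9 ± 1.93, F13a1 15.1 ± 0.836 and Lyve1 11.0 ± 5.76. The median over all 18707 genes was 13.9 normalised tags per region, with quartiles of 3.53 and 40.1. Siglec1 therefore stood at the 97.0th percentile of all genes, Ccr2 (no region within 1000 bp of its start) at 86.2 and Cbr2 at 85.0. By contrast, Mrc1, Pf4, Cd163, F13a1 and Lyve1 stood between 44.0 and 60.4. In this order Siglec1 was separate from Ccr2, and Cbr2 from Mrc1, in all 4 libraries. Ccr2 and Cbr2 overlapped, and so did each pair of neighbours from Pf4 to Lyve1. Mrc1 and Pf4 were separate in WT and overlapped once GrnKO libraries were included. In the inputs, summed scaled tags per gene ran from 7.49 (Siglec1) to 65.2 (Mrc1) in WT replicate 2, from 1.39 (Ccr2) to 72.5 (Mrc1) in GrnKO replicate 1, and from 0 to 143 (Mrc1) in GrnKO replicate 2. WT input replicate 1 was 0 at 6 of the genes and had 83.4 at F13a1 and 218 at Siglec1, in 1 region each.

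**Figure D1:**
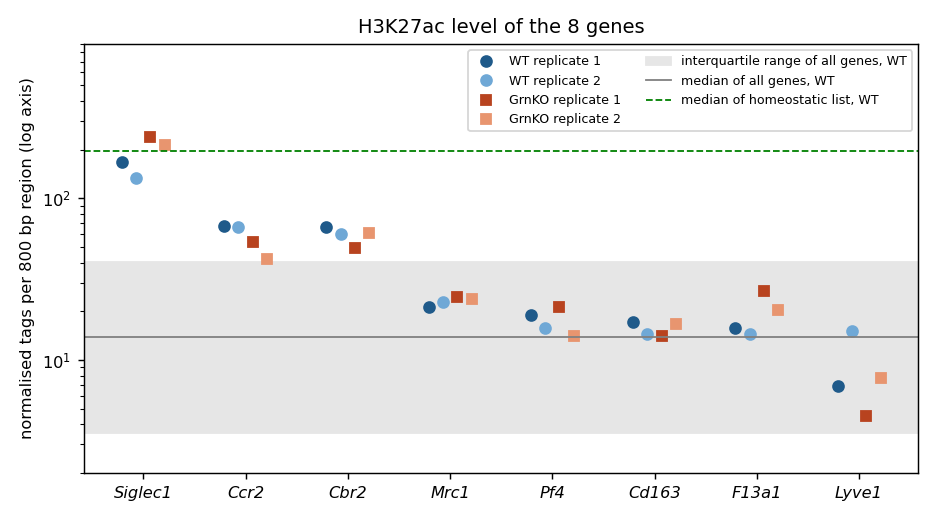
Normalised H3K27ac tags per 800 bp region (log axis) for the 8 genes in the 4 H3K27ac libraries, with the median and interquartile range of all genes in WT and the median of the homeostatic microglia list. Siglec1 lies highest, with 134 to 238 tags per region. Lyve1, with 4.52 to 15.0, lies lowest except in WT replicate 2.

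The 14 homeostatic microglia genes had 205 normalised tags per region in WT and 168 in GrnKO, and the median gene of that list had 197 in WT. Siglec1 came nearest to it among the 8 genes, and Ccr2, the next, had 67.0 in WT. Mrc1, Pf4, Cd163, F13a1 and Lyve1 had between 11.0 and 21.95 in WT. In GrnKO the means per region were 226 ± 17.9 for Siglec1, 55.1 ± 7.93 for Cbr2, 48.0 ± 7.97 for Ccr2, 24.2 ± 0.522 for Mrc1 and 23.6 ± 4.45 for F13a1. Pf4 had 17.7 ± 5.19, Cd163 15.3 ± 1.92 and Lyve1 6.11 ± 2.25 (SD, n = 2 each).

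Comparing genotypes, the signal summed over a gene rose in GrnKO at Siglec1 and F13a1, and did not pass the test at the other 6. Those 2 of 8 genes, both higher, stand beside a background of 14.4% of all tested genes called and 9.55% called higher. Ccr2 was the nearest of the others to the threshold and was lower in GrnKO. Of the 61 regions, 24 are intergenic, 25 intronic and 9 at promoters, and 12 lie within 1000 bp of a start. Enough tags for a test were present in 53, and the 8 left out belong to F13a1 (3), Mrc1 (2), Lyve1 (2) and Cd163 (1). Of these 53, 4 (7.55%) passed, 3 higher and 1 lower, against 9.72% of all tested regions, so the share called was not above that of the table. An unadjusted p under 0.05 was reached by 13 of the 53 (24.5%), and by 23.9% of all tested regions. Both GrnKO values lay above both WT values in 15 tested regions (28.3%) and below them in 12 (22.6%), against 27% and 25.6% of all tested regions. Without GrnKO replicate 1 neither gene and 0 of the 53 regions passed in limma, with 7 regions at an unadjusted p under 0.05. Without GrnKO replicate 2, 1 gene and 1 region passed, whereas 9 regions and 4 genes passed without WT replicate 1, and 7 regions and 3 genes without WT replicate 2. In the same fits the share of all tested regions called was 1.68% and 2.35% without GrnKO replicates 1 and 2, and 15.9% and 17.7% without WT replicates 1 and 2. For all tested genes it was 5.63% and 6.96%, and 20.97% and 23.5%. In these fits the lone library of a genotype is taken to vary like the other pair. With the replicate numbers as a block, 7 regions passed (13.2%, against 14.1% of all tested regions).

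**Figure D2:**
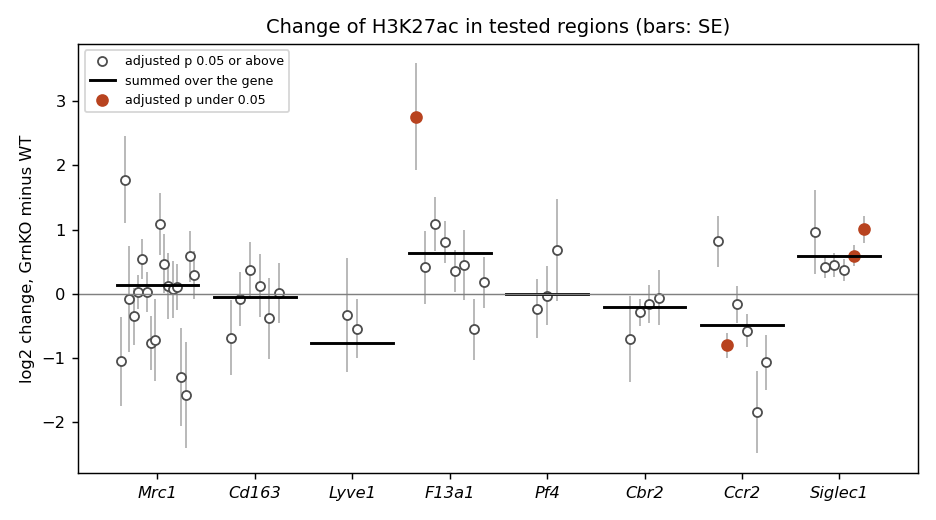
Log2 change (GrnKO minus WT) of the 53 tested regions, ordered within each gene by distance from the start site, with bars for the SE and a black line for the change of the summed gene. Filled points are the 4 regions with an adjusted p under 0.05, at F13a1, Ccr2 and Siglec1, and all 6 Siglec1 points lie above 0.

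Siglec1 encodes sialoadhesin (CD169), a sialic acid-binding receptor of border and tissue macrophages that is also induced by type I interferon. Summed over its 6 regions it had 1008 and 806 normalised tags in WT replicates 1 and 2 and 1429.6 and 1277 in GrnKO replicates 1 and 2. Both GrnKO libraries were above both WT libraries. The log2 change was 0.58 (SE 0.13, limma adjusted p = 0.00523). Without WT replicate 1 it was 0.74, and without GrnKO replicate 1 it was 0.50 with an adjusted p of 0.116.

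The 6 Siglec1 regions lie from 8271 bp upstream to 410 bp downstream of the start, on chromosome 2. GrnKO was above WT in each, against 27% of all tested regions. The 3 within 1000 bp of the start overlap in a chain, so the regions that passed share tags and are not separate observations. The region over exon 1 and the 5′ UTR, chr2:131085955-131086755, had 140.4 and 91.1 tags in WT and 239 and 217 in GrnKO. This was a log2 change of 1.00 (SE 0.21, adjusted p = 0.00437), and it kept an adjusted p under 0.05 without either WT library and without GrnKO replicate 2, but not without GrnKO replicate 1 (0.124). The promoter region centred 78 bp before the start, chr2:131086443-131087243, had 198 and 170.0 in WT and 292 and 265 in GrnKO. Its log2 change was 0.60 (SE 0.16, adjusted p = 0.0252), and leaving out GrnKO replicate 1 or 2 gave adjusted p values of 0.385 and 0.175. The highest region, 4292 bp upstream, had 275 and 199 in WT and 293 and 334 in GrnKO. Its difference of 0.42 did not pass (adjusted p = 0.130), although it did without WT replicate 1 (0.65, adjusted p = 0.00196) and with the replicate block (adjusted p = 0.0427). Without WT replicate 2 it was 0.19 (adjusted p = 0.398), and with the scaling of the authors 0.64 (adjusted p = 0.135). The region 3076 bp upstream had 223 and 173 in WT and 313 and 230.0 in GrnKO (0.45, adjusted p = 0.136). The remaining 2 regions had log2 changes of 0.37 and 0.96 and did not pass. The region 587 bp upstream had 218 scaled tags in WT input replicate 1 and 0, 4.16 and 0 in the other inputs. Its part in the Siglec1 result was not tested, and the 2 regions that passed had 0 in both WT inputs, 5.55 and 11.1 in GrnKO input replicate 1 and 0 in GrnKO input replicate 2.

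**Figure D3:**
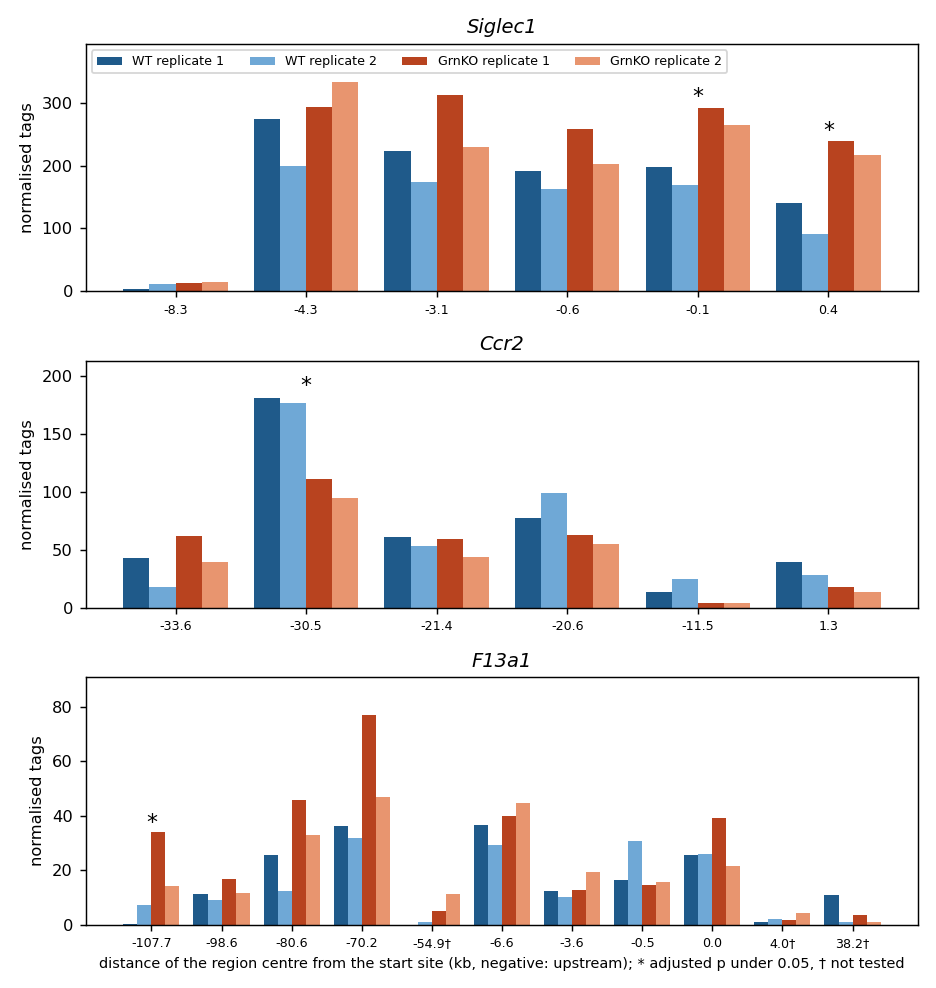
Normalised tags in each region of Siglec1, Ccr2 and F13a1 in the 4 H3K27ac libraries, placed by the distance of the region centre from the start site, not to scale. GrnKO bars are above WT bars in all 6 Siglec1 regions, and the Ccr2 region 30.5 kb upstream is lower in both GrnKO libraries.

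Mrc1 encodes the mannose receptor CD206, an endocytic receptor used to mark border macrophages. It had 20 listed regions, 18 of them tested and 2 at 0 in all 4 H3K27ac libraries. The sum was 423 and 455 in WT, against 490.4 and 476 in GrnKO. The GrnKO values were both higher, but the log2 change of 0.14, about the size of its SE (0.14), did not pass (adjusted p = 0.592). The region over its start, chr2:14228802-14229602, had the highest mean over the 4 libraries, although not over WT alone. It had 39.5 and 84.1 in WT and 85.4 and 83.5 in GrnKO, with the low value in WT replicate 1 alone (log2 change 0.54, adjusted p = 0.299). The change was 0.0065 without that library, and 1.08 without WT replicate 2 (adjusted p = 0.00461). The region 3694 bp downstream, in intron 1 of 29, had 10.2 and 11.0 in WT and 26.03 and 21.5 in GrnKO (1.09, adjusted p = 0.179). Among the 18 tested regions the changes ran from -1.57 to 1.78, with 11 above 0 and 7 below, and 0 passed. The first 4 listed regions, 11051 to 24919 bp upstream, lie in intron 3 of 3 of the neighbouring gene Tmem236.

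Cd163 encodes the scavenger receptor for haemoglobin-haptoglobin complexes. No listed region lay within 1000 bp of its start, and its sum over 7 regions was 121 and 102 in WT, against 97.9 and 117 in GrnKO. The genotypes overlapped, with a log2 change of -0.05 (SE 0.24, adjusted p = 0.928). Its highest region, 26266 bp upstream at chr6:124277985-124278785, had 33.6 and 14.4 in WT and 25.7 and 32.1 in GrnKO (0.36, adjusted p = 0.677). The region nearest to the start, in exon 3 of 17, had 8.99 and 13.1 in WT and 7.92 and 8.31 in GrnKO (-0.38, adjusted p = 0.775). Without WT replicate 1 it was -0.63, and without WT replicate 2 it was -0.13. All 6 tested regions were between -0.68 and 0.36.

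Lyve1 encodes a hyaluronan receptor of lymphatic endothelium and of a subset of border macrophages. It had the lowest mean signal of the 8, with sums over 4 regions of 27.5 and 60.1 in WT, against 18.1 and 30.8 in GrnKO. In WT replicate 2 its sum was above that of Pf4 (47.5). The genotypes overlapped and the replicates of each differed widely (log2 change -0.76, SE 0.46, adjusted p = 0.319). Without WT replicate 1, the lower of the WT pair, the change was -1.31 with an adjusted p of 0.0128. The region nearest to the start, in intron 1 of 5 at chr7:110859969-110860769, had 3.91 and 10.5 in WT and 0 and 4.15 in GrnKO, too few tags to be tested. The highest region, 15319 bp upstream, lies in intron 18 of 20 of the neighbouring gene Mrvi1. It had 18.0 and 28.3 in WT and 14.1 and 16.4 in GrnKO (-0.54, adjusted p = 0.528). Without WT replicate 1 it was -0.86, and without WT replicate 2 it was -0.23.

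F13a1 encodes the A subunit of coagulation factor XIII, a transglutaminase that border macrophages and some monocytes express. Its 11 regions summed to 172 and 159 in WT and 294 and 225 in GrnKO. Both GrnKO values were above both WT values, and the log2 change was 0.63 (SE 0.19, adjusted p = 0.0378). The change was 0.69 without WT replicate 1. It did not pass after quantile normalisation (0.56, adjusted p = 0.0694), without GrnKO replicate 1 (0.44, adjusted p = 0.527) or without GrnKO replicate 2 (0.83, adjusted p = 0.0637).

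The higher sum lay far from the F13a1 promoter. In a division made after the values were seen, the 5 regions more than 50 kb upstream summed to 71.8 and 61.1 in WT, against 181 and 118 in GrnKO. The 5 regions within 10 kb of the start summed to 89.8 and 97.5 in WT, against 109.6 and 106 in GrnKO. The start region, chr13:37048792-37049592, which spans the printed F13a1 window with its PU.1-type match, had 25.4 and 25.9 in WT, against 39.3 and 21.7 in GrnKO. These overlapped (log2 change 0.18, adjusted p = 0.838), and the sum over both regions within 1000 bp had a change of -0.10 (adjusted p = 0.932). The highest region, 70161 bp upstream, had 36.4 and 31.7 in WT and 76.9 and 46.8 in GrnKO. Its difference of 0.80 did not pass (adjusted p = 0.131), although it did without WT replicate 1 (0.90, adjusted p = 0.0491). Without GrnKO replicate 1 it was 0.45 (adjusted p = 0.804). The region 80591 bp upstream had 25.4 and 12.3 in WT and 45.8 and 33.0 in GrnKO (1.09, adjusted p = 0.118).

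One F13a1 region passed, chr13:37157591-37158391, which is intergenic and 107747 bp upstream. It had 0.388 and 7.34 tags in WT and 33.9 and 14.1 in GrnKO, so that both GrnKO libraries were higher but at very different levels. The log2 change was 2.75 (SE 0.83, adjusted p = 0.0430), and 1.74 with a pseudocount of 5. The WT value of 0.388 is under the floor of 3 tags, which is 1.94 scaled tags in that library. WT input replicate 1 had 83.4 scaled tags there, above all 4 H3K27ac values, and the other inputs had at most 5.35. The call was lost with edgeR (adjusted p = 0.0796), with DESeq2 (0.0538), after quantile normalisation (0.0531) and with no filter on low tags (0.0903). Without WT replicate 1 the change was 1.47 (adjusted p = 0.0549), and without GrnKO replicates 1 and 2 in turn the adjusted p was 0.596 and 0.161. Without WT replicate 2 the change was 4.04. The nearest other protein-coding gene to this region is Ly86, 186954 bp away.

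Pf4 encodes platelet factor 4 (CXCL4), a chemokine of platelets that border macrophages also transcribe. Summed over 3 regions it had 56.9 and 47.5 in WT, against 64.0 and 41.99 in GrnKO. The GrnKO pair enclosed the WT pair, and the log2 change was -0.0047 (SE 0.33, adjusted p = 0.995). The start region, chr5:90772067-90772867, which spans the printed Pf4 window, had 18.4 and 23.8 in WT, against 28.8 and 14.5 in GrnKO. The highest region, centred 835 bp upstream, had 36.8 and 17.3 in WT and 28.6 and 15.9 in GrnKO. With an SE of 0.33, moderate differences were not detectable.

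Cbr2 encodes a carbonyl reductase that is abundant in perivascular macrophages. Its 4 regions summed to 266 and 239.8 in WT and 198 and 243 in GrnKO, which overlapped (log2 change -0.20, SE 0.18, adjusted p = 0.538). Most of this came from 1 intergenic region 16263 bp upstream, chr11:120747884-120748684. Hmga1b, the nearest other protein-coding gene, lies 14110 bp from it. The region had 177 and 161 in WT and 111 and 172 in GrnKO, with the low value in GrnKO replicate 1 alone (-0.29, adjusted p = 0.447). The start region, centred 2 bp before the start, had 21.5 and 22.8 in WT and 26.03 and 17.3 in GrnKO (-0.06, adjusted p = 0.957).

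Ccr2, the receptor for CCL2 on classical monocytes, had a level per region in WT that overlapped that of Cbr2 and was below that of Siglec1. Summed over 6 regions it had 406 and 399 in WT and 322 and 254 in GrnKO. Both GrnKO libraries were lower, with a log2 change of -0.49 (SE 0.16), but the gene did not pass the limma test (adjusted p = 0.0555). The outcome depended on the fit. Ccr2 passed with DESeq2 (adjusted p = 0.0408), after quantile normalisation (0.0277), with the replicate block (0.0193), over non-overlapping regions (0.0348), without WT replicate 1 (0.0339) and without WT replicate 2 (0.0269). It did not pass with edgeR (0.0705), with a pseudocount of 5 (0.0511) or with no filter (0.0610). Without GrnKO replicate 1 the change was -0.66 (adjusted p = 0.0962), and without GrnKO replicate 2 it was -0.32 (adjusted p = 0.545). With the scaling of the authors and no composition correction it was -0.30 (adjusted p = 0.523), and the genotypes overlapped.

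One Ccr2 region fell in GrnKO. It is intergenic, 30473 bp upstream at chr9:124071310-124072110, and was the highest of the gene. It had 181 and 177 normalised tags in WT, against 111 and 94.6 in GrnKO. The log2 change was -0.80 (SE 0.19, adjusted p = 0.0135), and -0.78 without WT replicate 1. With the scaling of the authors it was -0.57 and did not pass (adjusted p = 0.231), nor did it pass without GrnKO replicate 1 (0.102) or 2 (0.226). The region nearest to the start, in intron 1 of 2 and 1300 bp downstream, had 39.9 and 28.0 in WT, against 17.8 and 13.4 in GrnKO. There WT input replicate 2 had 29.4 scaled tags, beside 29.0 for H3K27ac of the same pool before composition correction. GrnKO input replicate 2 had 30.6, beside 14.5 for H3K27ac, and the other inputs had 0. Their part in this difference was not tested. Its difference of -1.07 did not pass (adjusted p = 0.125), although it did without WT replicate 2 (adjusted p = 0.0402). An intergenic region 11519 bp upstream had 13.7 and 24.6 in WT and 4.25 and 4.61 in GrnKO (-1.84, adjusted p = 0.0815). GrnKO was below WT in 4 of the 6 regions, against 25.6% of all tested regions, and overlapped it in the other 2. One of those, 33593 bp upstream, had a change of 0.82 (adjusted p = 0.217). With the scaling of the authors GrnKO was above WT there, and the region 20604 bp upstream overlapped instead of lying below.

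The genes closest to each of the 8 in level over the 4 H3K27ac libraries, among 12903 genes with at least 3 regions, were found by Euclidean distance on log2 tags per region. For Siglec1 they were Myo9b (distance 0.26) and Il10rb (0.28), and for Ccr2 Stx16 (0.14) and Smpdl3b (0.15). For F13a1 they were Grm5 (0.08) and Gtdc1 (0.13), for Cbr2 Arid2 (0.10) and Dirc2 (0.12), and for Mrc1 Bphl and Mapk1ip1l (0.07 each). Cd163 was nearest to Dennd3 (0.12) and Zfp330 (0.13), Pf4 to Tmx3 (0.14) and Ascc3 (0.18), and Lyve1 to Snapc3 and Gm4791 (0.34 each). None of these neighbours is on a list of border macrophage or monocyte genes used here. With 21 and 15 genes of those lists in the table, a match was unlikely in advance, so its absence says nothing about the 8 genes.

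Of 22 other border macrophage genes, 21 were in the table and 20 were tested. Of these, 7 rose, 2 fell and 11 did not pass, against 9.55% of all tested genes called higher and 4.88% called lower. Their median log2 change was 0.26, against -0.0099 for all tested genes and -0.03 for the 8 genes. With 1 library left out, the median of this list ran from 0.21 to 0.43. Among the genes that rose, the smallest p was that of Ms4a7 (1.63), a border macrophage surface gene, with 166 and 147 tags in WT and 558 and 425 in GrnKO. Colec12, a scavenger receptor, changed by 1.68, Ms4a4a by 1.59 and Gas6, a ligand of the phagocytic receptor AXL, by 0.76. The other 3 that rose were Aoah, Clec4n and Dab2. Ednrb (-0.59) and Igfbp4 (-0.80) fell. The 11 that did not pass ran from -0.64 (Timd4) to 2.44 (Fcna), with Timd4 and Mgl2 (-0.55) below 0 and 9 above. Stab1, Maf and Folr2, which also mark these cells, had 0.07, 0.16 and 0.36. With the scaling of the authors 7 rose and 0 fell, with a median of 0.45, without GrnKO replicate 1 these counts were 4 and 0, without GrnKO replicate 2 they were 6 and 0, and without WT replicate 1 they were 7 and 3. Without WT replicate 2 they were 9 and 1. Over regions within 1000 bp of a start 3 rose and 1 fell, with a median of 0.73.

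Of 18 other monocyte genes, 15 were listed and 11 tested. Only Itga4 (0.93), the integrin alpha 4 chain, and Ifitm6 (1.06) passed, and both rose, against 9.55% of all tested genes called higher. The median of the list was -0.29. Without WT replicate 1 that median was 0.04 with 2 genes higher and 1 lower, and without GrnKO replicate 2 it was 0.03. Without WT replicate 2 it was -0.13 and 3 rose, and without GrnKO replicate 1, 1 rose. Over regions within 1000 bp of a start it was 0.43 with 1 of 7 higher, over non-overlapping regions -0.04, with no filter -0.02, and with the scaling of the authors -0.11. Ly6c2, the classical monocyte surface marker, was near 0, with a WT mean of 1.83 tags over 3 regions, and Fn1 had 0.525. Plac8, which did not pass, had a change of -0.51 and Vcan -0.37. Of 14 homeostatic genes, 7 fell and 0 rose, with a median of -0.30, against 4.88% of all tested genes called lower. Those with the smallest p were Selplg (-0.53), Cx3cr1 (-0.38), Sall1 (-0.48) and Cst3 (-0.45). Fcrls had a change of 0.25 and did not pass (adjusted p = 0.138). With the scaling of the authors the median was -0.11, 0 of the 14 passed in limma and 0 had an unadjusted p under 0.05. Leaving out 1 library also moved the share of all tested genes called, as given above. Without GrnKO replicate 1, 0 passed and 7 had an unadjusted p under 0.05, without GrnKO replicate 2, 3 fell, and without WT replicate 1, 10 fell. Without WT replicate 2, 8 fell and 1 rose, and over regions within 1000 bp of a start 3 fell and 0 rose. Of 12 tested interferon-response genes 0 passed in limma, and 2 had an unadjusted p under 0.05. With edgeR 0 passed, and 1 fell with DESeq2, after quantile normalisation and with the replicate block. Their median was 0.01, but 0.15 without WT replicate 1, with 1 gene lower, and -0.26 without WT replicate 2, with 1 higher and 1 lower. Mx1, among the highest by mean signal, had a change of -0.55 (adjusted p = 0.0529).

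**Figure D4:**
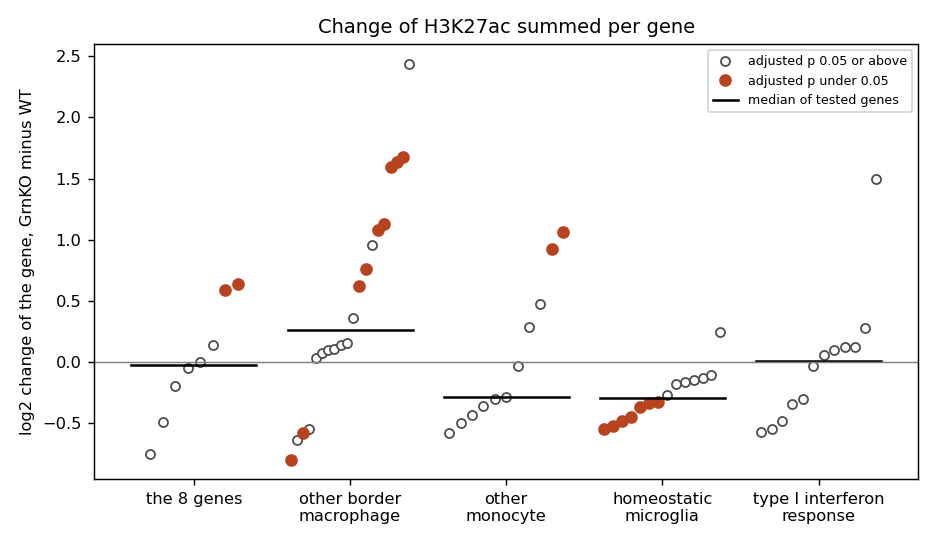
Log2 change (GrnKO minus WT) of the summed signal of each tested gene in the 8 genes and in 4 other lists, with filled points for an adjusted p under 0.05 and a line at each median. The border macrophage list has 7 filled points above 0, and the homeostatic list has 7 below 0.

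Markers of other cells were examined in the same sums. B cell markers summed to 929 and 874 tags in WT and 1502 and 1403 in GrnKO, with 2 of 4 tested genes higher, Ms4a1 (1.39) and Cd22 (0.79). Of the B cell genes that did not rise, Blk had a WT mean of 237 and a GrnKO mean of 223, and Cd79b 117 and 108. Pax5, a transcription factor gene, had a WT mean of 0.260 and a GrnKO mean of 0.286, and Ebf1 7.64 and 1.85, and neither was tested. T cell markers summed to 308 and 295 in WT and 412 and 424 in GrnKO, with Cd4 higher (0.98) among 4 tested. Lck had means of 119 in WT and 103 in GrnKO, Cd3d 27.3 and 33.6, and Cd3e 2.61 and 0.117. Neutrophil markers summed to 119 and 75.5 in WT and 103 and 87.0 in GrnKO. S100a8 was higher among 6 tested (3.06), from 0 and 5.23 in WT to 20.7 and 18.9 in GrnKO. The list, however, had a median of -0.49, which ran from -0.70 to -0.08 with 1 library left out and was 0.01 with no filter. Cxcr2, Elane, Ngp and Retnlg had changes of -0.20 to -0.92 and Ltf one of 0.30, and none of these passed. The S100a8 call was lost with edgeR and without either GrnKO library.

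Platelet markers, relevant to Pf4, summed to 799 and 842 in WT and 725 and 830.5 in GrnKO, with Gp9 lower (-1.48) among 4 tested. The list median of 0.19 turned to -0.32 without WT replicate 1, to -0.27 without GrnKO replicate 1 and to -1.03 over the 2 genes with tested regions within 1000 bp. Gp9 did not pass without either GrnKO library or over non-overlapping regions, and Itga2b (0.44), Ppbp (0.85) and Itgb3 (-0.06) did not pass in the fit over all 4 libraries. Endothelial and mural markers, relevant to Lyve1, summed to 943 and 1032 in WT and 1522 and 1537 in GrnKO. Flt1 (0.99) and Prox1 (0.86) were higher among 5 tested, whereas Cdh5 (-0.03), Cldn5 (0.15) and Pdgfrb (0.61) did not pass. Without either GrnKO library 1 gene passed, and without WT replicate 1, 3 genes did. Neuron markers summed to 231 and 273 in WT and 184 and 161 in GrnKO, with Syt1 lower (-0.95) among 4 tested, a call lost with the scaling of the authors and without either GrnKO library. Oligodendrocyte markers summed to 2610.0 and 2742 in WT and 3169 and 3398 in GrnKO. Among 5 tested, Mbp was higher (0.51), with means of 1775 in WT and 2522 in GrnKO, and Mog was lower (-1.27). Mag (-0.29), Olig2 (-0.38) and Cnp (-0.03) did not pass, and the list median was -0.29. Without GrnKO replicate 2 only 1 gene of that list passed, which was lower, and without WT replicate 1, 2 were lower. Astrocyte markers summed to 3626 and 3592 in WT and 3609 and 3749.6 in GrnKO, with S100b higher (1.24) among 6 tested. Slc1a3 held most of that sum, with means of 3341 in WT and 3191 in GrnKO (-0.07), and did not pass. Aldh1l1 (1.94), Slc1a2 (0.83), Aqp4 (-0.92) and Fgfr3 (-2.10) did not pass, the untested Gfap and Gja1 had WT means of 10.0 and 12.6 and GrnKO means of 2.35 and 1.57, and without WT replicate 1, 3 genes were higher. Of the neuron list, Syt1 had a WT mean of 110.3 and Snap25 97.3, whereas Gad2 and Slc17a7 had 0 and 3.14. The part of these markers in the results for the 8 genes was not tested.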

How the data were processed

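H3K27ac and input were measured by ChIP-seq. Per the submitters' processing notes, Bowtie2, HOMER and DESeq2 were used with build mm10. The handling of duplicate reads is not given in the sources used here. Per the file headers, the values are signal, which the authors made by scaling tags per 800 bp accessible region to 10000000 tags per library. Multiplying by library totals returned whole read ends, 2 per tag, for 100% of values, within 0.020 of an end or less. Reads carry no molecular identifiers here, and the detection floor of 3 tags covers counting error only.

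Regions with too few recovered tags were removed with edgeR's filterByExpr (minimum 10), leaving 80728 regions and 15380 genes. limma was run on log2(TMM-scaled signal + 1), a scale that understates changes of low values, with genotype as the only term, a trended variance and Benjamini-Hochberg adjustment over all features at 0.05. Tags in the 21 of the 61 regions that overlap another are counted in each. Tools were R 4.3.3, limma 3.58.1, edgeR 4.0.16 and DESeq2 1.42.0, tested on simulated data. Alternatives were edgeR and DESeq2 on recovered read ends, the authors' scaling, quantile normalisation, a pseudocount of 5, no filter, a replicate block, each library left out, regions within 1000 bp, and non-overlapping regions. Rows without a gene name (170) stayed out of gene sums. Start sites back-calculated from the table differed by at most 13 bp from RefSeq for all 8 genes.

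The 8 genes and the lists were chosen with earlier results of these data known. For each of the 8, the text gives the region nearest to the start, the highest, and those past the threshold. For other lists it gives up to 4 genes per direction with the smallest p, or the 2 with the highest signal where none passed. Others were named after their values were seen. Some genes that this rule or the lists include are not reported here.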

Additional observations from a re-analysis of the deposited data

Results flagged for a closer look

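In 8 of the 61 regions, an input library, which saw no antibody, held more than 3 tags and had more scaled tags than any of the 4 H3K27ac libraries. The highest such value was 83.37 in WT input replicate 1, in the F13a1 region 107747 bp upstream that passed the test, where the highest H3K27ac value was 36.7 scaled tags. At F13a1 the others were 13.9 in WT input replicate 2, at the region 54862 bp upstream, and 13.18 in GrnKO input replicate 1, at the region 4000 bp downstream. Mrc1 had 18.04 in GrnKO input replicate 1 at a region that was 0 in all H3K27ac libraries, and 30.61 and 20.41 in GrnKO input replicate 2 at 2 regions in introns 1 and 2. Lyve1 had 17.64 in WT input replicate 2 at the region nearest to its start. Pf4 had 12.24 in GrnKO input replicate 2 at the region 1661 bp downstream. Each value is 1 library, and the inputs hold fewer tags than the H3K27ac libraries, so 12.24 there stands for 6.00 tags. With no minimum of tags, 20 of the 61 regions had an input above the H3K27ac library of its own pool. The ratio of H3K27ac to input, in scaled tags summed over both replicates, was lowest in WT at F13a1 (2.72), Pf4 (4.34) and Lyve1 (4.85). In GrnKO it was lowest at Lyve1 (2.32), Pf4 (3.00) and Mrc1 (4.79). The highest ratios were 17.9 in WT (Ccr2) and 121 in GrnKO (Siglec1).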

How the results depend on the processing

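The replicate block, in which same-numbered libraries are paired, gave 11391 regions, 3009 genes and 7 regions of the 8 genes past the threshold, against 7843, 2219 and 4. The labels tie no animal, litter or day to a number, and their deviations correlated at 0.03. With the block Ccr2 had -0.49 (adjusted p = 0.0193). Leaving out 1 library gave 1356 to 14311 regions, 866 to 3615 genes, 0 to 9 regions of the 8 genes and 0 to 4 of the 8 genes. Over those fits the change was 0.43 to 0.74 for Siglec1, 0.44 to 0.83 for F13a1, -0.66 to -0.32 for Ccr2, -1.31 to -0.20 for Lyve1, 0.084 to 0.20 for Mrc1, -0.35 to -0.056 for Cbr2, -0.18 to 0.077 for Cd163 and -0.30 to 0.29 for Pf4, and for regions 0.0065 to 1.08 (start, Mrc1), -0.63 to -0.13 and -0.22 to 0.95 (nearest and highest, Cd163), -0.86 to -0.23 (highest, Lyve1), 0.45 to 1.16 (highest, F13a1), 0.19 to 0.65 (highest, Siglec1), -0.23 to 0.60 (start, F13a1), -0.50 to 0.44 and -0.75 to 0.29 (start and highest, Pf4), and -0.34 to 0.22 and -0.60 to 0.027 (start and highest, Cbr2). The limit of 1000 bp left 609 genes and 1 of the 5 members it could test, and turned F13a1 to -0.10. F13a1 was 0.56 and Ccr2 -0.58 after quantile normalisation, and Ccr2 was -0.49 with DESeq2 and over non-overlapping regions. Cd163 and Pf4 turned to 0.14 and 0.18 with the authors' scaling, and Pf4 to 0.020 with edgeR, 0.016 with DESeq2 and 0.0069 with no filter. The Pf4 start region turned to 0.030 with edgeR, 0.028 with DESeq2, 0.19 with the authors' scaling and 0.013 with no filter, and the Cbr2 start region to 0.16 with the authors' scaling. The authors' scaling moved the median change of all genes from -0.0099 to 0.18, and the share of called regions that were higher from 70.0% to 95.2% (genes, 66.2% to 90.8%). The causes were not tested. By highest region, the WT percentiles were 66.5 for Mrc1, 49.9 for Cd163, 49.5 for Pf4 and 89.9 for Siglec1, and with input subtracted 62.0 for Mrc1, 55.7 for Cd163 and 45.9 for F13a1. The SEs of the summed change were largest for Lyve1, Pf4 and Cd163 (0.46, 0.33 and 0.24), the 3 of the 8 genes with the fewest summed tags.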
